A study of Mus musculus with 18 samples.

Results

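The 9 arrays described here come from mice whose intestinal epithelium lacked the transcription factor Stat3. They were chosen by their sample titles out of 18 arrays in all, and hold 3 preparations of intestinal epithelial cells (replicates 4 to 6), 3 tumours of male mice (replicates 10 to 12) and 3 tumours of female mice (replicates 16 to 18). The other 9 arrays, from control mice, are used to show where the Stat3-deleted tissues differ. They also enter the choice of genes tested and the shared estimate of spread behind the p-values of the fit reported. They hold 3 epithelial preparations (replicates 1 to 3) and 3 tumours of each sex (replicates 7 to 9 and 13 to 15). Control mice carried floxed Stat3 alleles (Stat3fl/fl). The deleted mice (Stat3-/-) also had a Cre recombinase under the Villin promoter, which is active in the intestinal epithelium. The deletion is thus aimed at epithelial cells and not at fibroblasts, vessels and immune cells of the tumours. Stat3 was not measured separately in those cells. The series text places these alleles on the APCmin/+ background, in which a mutated Apc allele leads to intestinal tumours, whereas the sample labels speak of chemically induced colorectal tumours, so the induction and the gut segment of the tumours are not settled. Age is not given for the mice, and for the epithelial cells neither the sex nor the Apc genotype is labelled. Since no label ties the samples to different animals, each p-value here reflects the variation among the arrays, part of which may be technical.

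Stat3 relays signals of the interleukin 6 family, interleukin 22 and related cytokines to the nucleus, and in the gut it is known for driving genes of antimicrobial defence, acute-phase proteins and epithelial repair. Loss of Apc frees beta-catenin, which turns on WNT target genes and keeps epithelial cells in a crypt-like, dividing state. The comparison of tumours with epithelial cells within the Stat3-deleted mice asks which expression differences of a tumour are present when the epithelium lacks Stat3.

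Values are log2 expression levels of an Affymetrix mouse gene array, so a difference of 1 is a 2-fold difference, and errors of differences are standard errors. A gene is called when its Benjamini-Hochberg adjusted p from limma is under 0.05 over 17316 tested genes, and all adjusted p-values below are of that kind. The 6 Stat3-deleted tumours correlated with each other at 0.956 to 0.988 and with the Stat3-deleted epithelial cells at 0.754 to 0.913. The first principal component of the 9 arrays, with 75% of the variance, separated the tissues. Female tumour 18 stood apart from the other Stat3-deleted tumours by more fibroblast, macrophage and neutrophil marker RNA. Its mean of smooth muscle and pericyte genes, 8.02, lay within the 7.48 to 8.66 of these tumours. Epithelial replicate 4 stood apart by more T cell marker RNA. Control tumours 9 and 15 differed from the other control tumours in absorptive and colon genes, and values without them are given beside the results they move.

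The Stat3 probe set read 7.93, 7.95 and 7.73 in the Stat3-deleted epithelial cells and 7.74 to 8.46 (median 8.17) in the tumours, below the 9.83, 9.74 and 9.91 of the control epithelial cells and the 10.03 to 10.35 (median 10.10) of the control tumours. The difference between the Stat3-deleted tissues, 0.28 ± 0.13, was not called (limma adjusted p 0.0699), and where in the gene the probes lie was not tested. Of 15 epithelial identity genes, 3 were called higher in tumours and 5 lower, against 30.3% and 36.2% of all genes. The mean level of the list was 11.02 to 11.25 in the epithelial cells and 10.80 to 11.25 in the tumours. Epcam, an adhesion molecule of intestinal epithelium, read 11.43, 11.65 and 11.68 in the epithelial cells and 11.38 to 11.87 (median 11.71) in the tumours, so the groups overlapped. The files give no call of signal over background, so no marker is described as absent.

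Between Stat3-deleted tumours and Stat3-deleted epithelial cells, 11514 of 17316 genes (66.5%) were called, and 12104 (69.9%) had an unadjusted p under 0.05. Of the called genes, 5249 (30.3% of all tested) were higher and 6265 (36.2%) lower in the tumours. Counts of called members in the gene lists are to be read against these shares. At least 2-fold, 2903 genes (16.8%) were called, 2189 (12.6%) higher and 714 (4.12%) lower, and 32 against 2 passed 16-fold. The median difference over all genes was -0.0744, and the arrays of the 2 tissues did not overlap for 9680 genes (55.9%). With quantile normalisation of the deposited values the 2-fold calls split into 1837 higher and 1235 lower, so that 59.8% were higher in place of 75.4%. Before that step the quartiles of every tumour array lay wider apart than those of any epithelial array.

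The 15 largest rises among called genes without overlap were led by the annexin genes Anxa10 and Anxa1 and by Clu. Anxa10, an annexin of gastric epithelium, read 5.45, 5.51 and 6.42 in the epithelial cells and 10.59 to 12.07 (median 11.47) in the tumours, a difference of 5.58 ± 0.51 (limma adjusted p 8.61e-07). Anxa1, an annexin that dampens inflammation, read 5.21, 5.06 and 5.18 against 9.70 to 11.04 (median 10.49), a difference of 5.33 ± 0.26 (limma adjusted p 1.37e-09). Clu, which encodes the secreted chaperone clusterin and marks regenerating crypt cells, read 6.53, 6.20 and 6.47 against 11.41 to 11.92 (median 11.61), a difference of 5.22 ± 0.18 or 37.2-fold (limma adjusted p 4.18e-11). For all 3 genes every tumour was above every epithelial array. Saa3, an acute-phase apolipoprotein, was 5.13 higher, the collagenase gene Mmp13 4.96 and the matrix proteoglycan gene Dcn 4.96. The remaining 9 lay between 4.38 and 4.91. They were Slc38a4 (an amino acid transporter), Iigp1 (an interferon-induced GTPase), Thbs1 and Fn1 (thrombospondin and fibronectin of the matrix), Igfbp5, Pnliprp1, Asb4, Pla2g2a (a bactericidal phospholipase) and Scd1 (an enzyme of fatty acid desaturation). Asb4 was 4.48 higher here and 2.31 higher in control tumours, a difference between the genotypes of 2.17 ± 0.68 that was not called (limma adjusted p 0.474).

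The 15 largest falls held many transporter genes. Fabp6, the ileal bile acid binding protein, read 10.34, 9.83 and 10.84 in the epithelial cells and 4.27 to 4.62 (median 4.51) in the tumours, a difference of -5.84 ± 0.93 (limma adjusted p 0.000107). All 6 tumours lay close together, near the lower quartiles of their arrays (4.312 to 4.404), where levels cannot be told from background. Control tumours spread over 4.78 to 11.10 (median 7.55) and differed from control epithelial cells by -2.73. The difference between the genotypes, -3.11 ± 1.32, was not called (limma adjusted p 0.51). Slc5a12, a lactate transporter, read 10.04, 10.79 and 10.79 against 4.78 to 7.52 (median 5.76), a difference of -4.44 ± 0.64 (limma adjusted p 5.12e-05), and no tumour reached the epithelial values. The remaining 13 fell by 2.90 to 3.86. They were Enpp7 (the intestinal sphingomyelinase), the solute carriers Slc13a2, Slc5a4a, Slc23a1, Slc5a11 and Slc2a7, Cubn (an uptake receptor), Pdzk1 (a scaffold of the brush border), Pck1 (an enzyme of gluconeogenesis), Aldh4a1, Naaladl1, Susd2 and Oas1e.

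**Figure D1:**
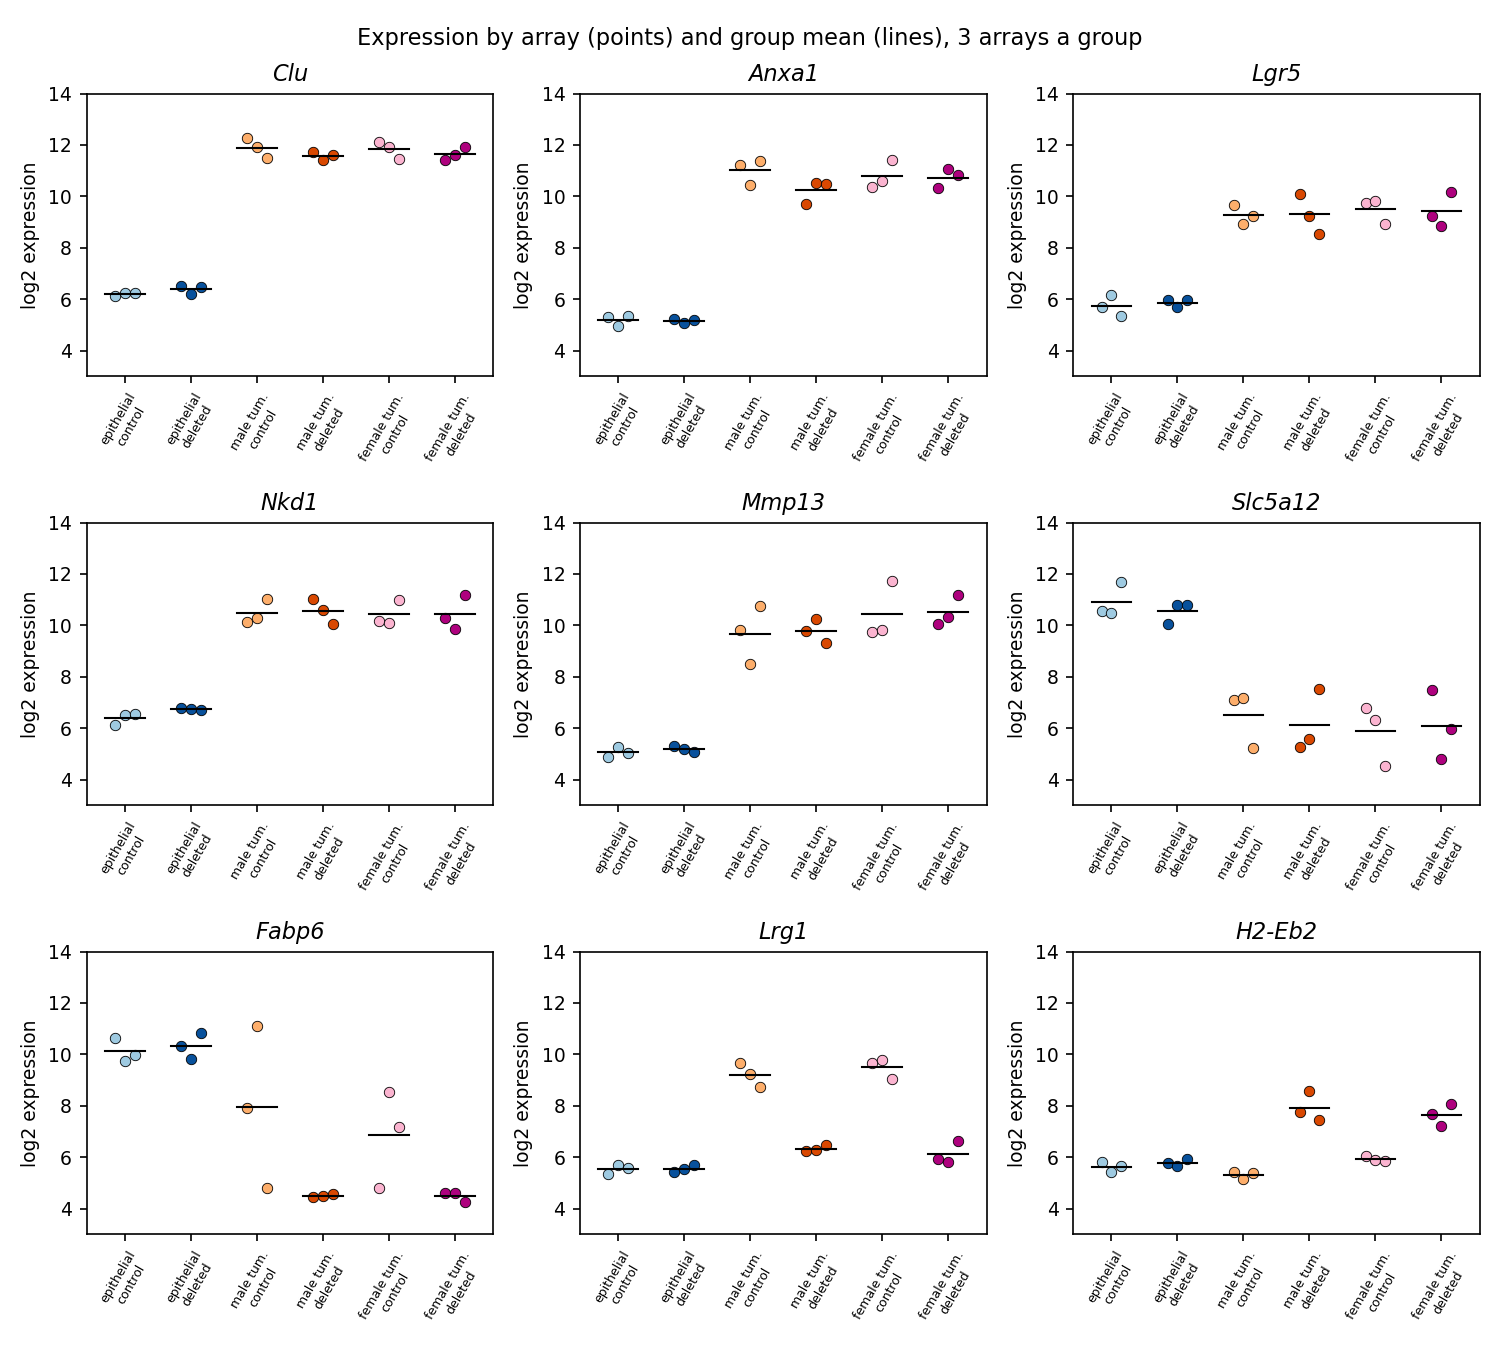
Log2 expression (vertical axis) of 9 genes in each of the 6 groups (horizontal axis), with a point for each array and a line at the group mean (n = 3). Clu, Anxa1, Lgr5, Nkd1 and Mmp13 are higher and Slc5a12 and Fabp6 lower in the Stat3-deleted tumours than in their epithelial cells, while Lrg1 is at 5.80 to 6.64 in Stat3-deleted and 8.72 or more in control tumours, and H2-Eb2 is at 7.20 or more in Stat3-deleted tumours and at most 6.04 in control tumours.

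The plot of values by array shows the same direction in both genotypes for most of these genes, which held for most tumour differences of control mice. Control tumours differed from control epithelial cells in 11373 genes (65.7%, and 69% at an unadjusted p under 0.05), 30.4% higher and 35.3% lower, of which 3441 (19.9%) at least 2-fold. Of the 2438 genes (14.1%) called at least 2-fold higher there, 2307 (94.6%) were called higher in the Stat3-deleted tumours, and 1760 (72.2%) again at least 2-fold. Of the 1003 genes (5.79%) at least 2-fold lower, 774 (77.2%) were called lower and 502 (50%) again at least 2-fold. Read from the Stat3-deleted side, 2090 of 2189 risers (95.5%) and 685 of 714 fallers (95.9%) were called the same way in controls. Medians depend on the genotype in which the genes were chosen. Control fallers had -1.55 in controls and -1.04 in the Stat3-deleted arrays, and control risers 1.45 and 1.28. Stat3-deleted fallers had -1.24 in their own arrays and -1.54 in controls, and Stat3-deleted risers 1.38 and 1.45. The shared proportion of control fallers was 83.9% (720 of 858) when control tumours 9 and 15 were left out, and 70.9% (713 of 1006) without Stat3-deleted tumour 18. The genotypes share no array. Across the 17316 genes, which are not independent replicates, the 2 differences correlated at Pearson's r = 0.906 and Spearman's rho = 0.894.

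**Figure D2:**
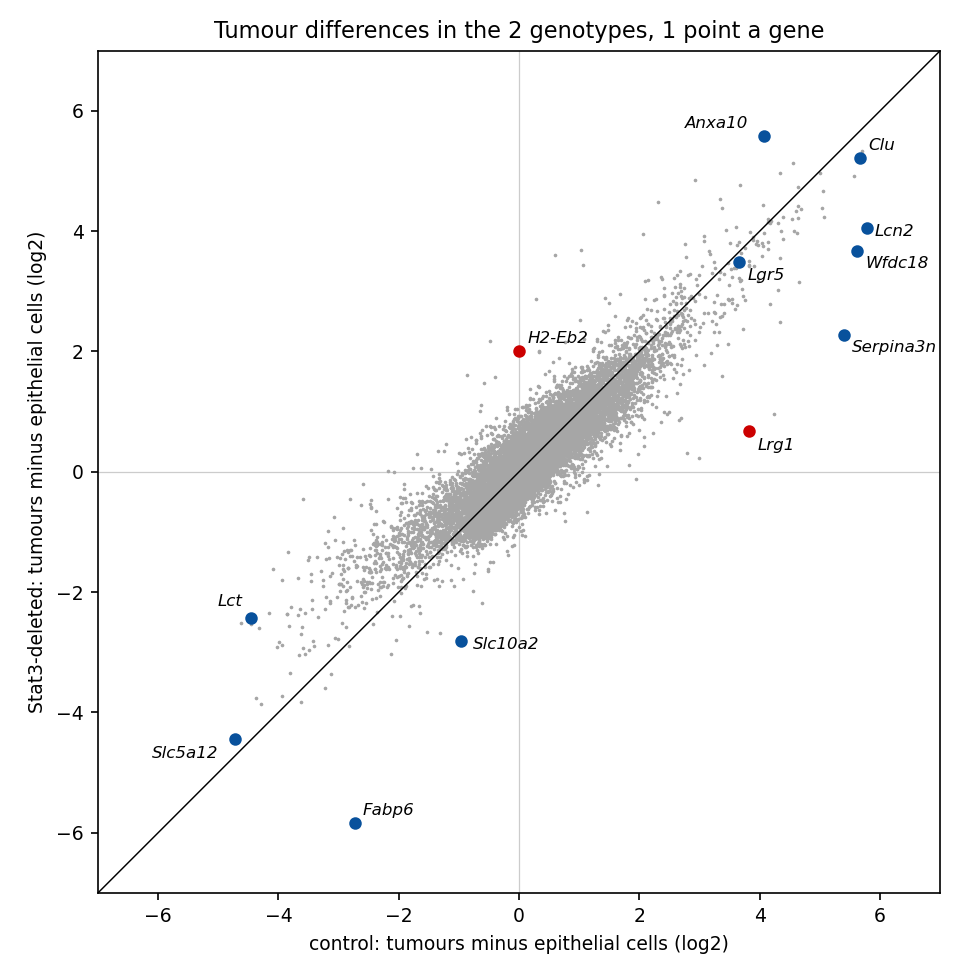
Difference between tumours and epithelial cells (log2) in control arrays (horizontal axis) and in Stat3-deleted arrays (vertical axis), with a point for each of 17316 genes and the line of equal differences. Lrg1 and H2-Eb2, in red, are the 2 genes called for the difference between the genotypes.

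The difference in tumour change between the genotypes was called for 2 of 17316 genes (0.0116%), 1 upward (0.00578%) and 1 downward (0.00578%). At an unadjusted p under 0.05 there were 1624 (9.38%). The plot of one genotype against the other shows both away from the line. Lrg1, a secreted acute-phase glycoprotein that also promotes vessel growth, rose less in the Stat3-deleted tumours. It read 5.41, 5.53 and 5.69 in the Stat3-deleted epithelial cells and 5.80 to 6.64 (median 6.26) in their tumours, and 5.33, 5.68 and 5.57 in the control epithelial cells and 8.72 to 9.79 (median 9.45) in theirs. The epithelial cells of the genotypes overlapped, and the tumours did not. The tumour difference was 0.68 ± 0.22 in Stat3-deleted arrays and 3.83 ± 0.22 in controls, a difference between them of -3.14 ± 0.31 (limma adjusted p 0.000288). This call held when each array was left out in turn (limma adjusted p 6.43e-05 to 0.00298). The rise within the Stat3-deleted arrays was itself lost without epithelial replicate 4 (limma adjusted p 0.0536).

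H2-Eb2, which encodes a beta chain of the MHC class II family, went the other way. It read 5.79, 5.64 and 5.92 in the Stat3-deleted epithelial cells and 7.20 to 8.58 (median 7.72) in their tumours, with 5.80, 5.42 and 5.64 in the control epithelial cells, and 5.14 to 6.04 (median 5.63) in the control tumours. Only the Stat3-deleted tumours lay above the other 3 tissues. The tumour difference was 2.01 ± 0.21 in Stat3-deleted arrays (limma adjusted p 3.43e-06) and 0.00 ± 0.21 in controls, a difference between them of 2.01 ± 0.30 (limma adjusted p 0.0402). The call of that difference was lost when any of 13 of the 18 arrays was left out (limma adjusted p 0.00882 to 0.232 over all 18). Whether the probes also read the related gene H2-Eb1 was not tested.

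The promoter windows of both genes are shown because Stat3 is a DNA-binding factor and both were called for the difference between genotypes. The window of Reg3b, a lectin gene described with the antimicrobial genes below, is added as an example. Reg3b was not called for that difference, and its levels differed between the genotypes in epithelial cells as well as in tumours. Windows of other genes that read differently in the tumours of the 2 genotypes are not shown. The windows shown run from 250 bases before to 50 after the annotated start (RefSeq, build GRCm38.p6). Capitals mark each match, on either strand, to the STAT core TTCNNNGAA or to the CCAAT core (read as ATTGG on the other strand), which NF-Y binds at MHC class II promoters.
Lrg1, chr17:56121897-56122196, minus strand: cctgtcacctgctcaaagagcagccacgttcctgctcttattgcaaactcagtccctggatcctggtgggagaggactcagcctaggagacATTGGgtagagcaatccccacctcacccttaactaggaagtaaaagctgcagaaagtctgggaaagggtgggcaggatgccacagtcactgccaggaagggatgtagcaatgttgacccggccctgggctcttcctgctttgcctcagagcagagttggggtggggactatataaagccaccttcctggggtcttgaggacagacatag
H2-Eb2, chr17:34325425-34325724, plus strand: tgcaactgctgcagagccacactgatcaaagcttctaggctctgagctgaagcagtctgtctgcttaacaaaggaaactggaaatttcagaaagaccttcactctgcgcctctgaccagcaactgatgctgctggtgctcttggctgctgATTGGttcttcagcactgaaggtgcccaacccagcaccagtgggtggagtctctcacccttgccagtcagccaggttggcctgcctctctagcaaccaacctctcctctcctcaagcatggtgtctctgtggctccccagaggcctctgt
Reg3b, chr6:78370635-78370934, plus strand: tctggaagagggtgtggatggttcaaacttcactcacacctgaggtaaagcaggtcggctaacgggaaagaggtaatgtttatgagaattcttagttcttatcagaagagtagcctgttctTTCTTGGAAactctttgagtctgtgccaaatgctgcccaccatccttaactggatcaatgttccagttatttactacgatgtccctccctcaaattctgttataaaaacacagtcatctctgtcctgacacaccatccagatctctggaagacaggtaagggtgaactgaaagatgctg
The Lrg1 window holds no match to the STAT core and 1 CCAAT core 159 bases before the start, and the H2-Eb2 window 1 CCAAT core 100 bases before the start. The Reg3b window holds 1 STAT core 129 bases before the start. Among 13638 tested genes with a window, 1157 (8.48%) hold a STAT core and 5669 (41.6%) a CCAAT core. Of 19 antimicrobial and acute-phase genes with a window, 3 (15.8%) hold a STAT core. These are matches of letters in a short window, and regulatory sequence elsewhere was not analysed here.

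The genes next in rank for the difference between genotypes were not called with all arrays. Npy2r, a receptor for neuropeptide Y, fell by 0.82 in Stat3-deleted tumours and was 0.76 higher in control tumours (limma adjusted p of the difference 0.0514, and 0.026 without control tumours 9 and 15). Npy2r was dim, at 3.88 to 4.48 (median 4.29) in Stat3-deleted tumours, near the lower quartiles of those arrays (4.312 to 4.404). In their epithelial cells it read 4.88 to 5.30. Its ligand gene Npy had the opposite order, with 6.47, 6.61 and 6.85 in the Stat3-deleted epithelial cells, 9.27 to 11.03 (median 9.80) in their tumours, and tumour differences of 3.43 here and 1.06 in controls (limma adjusted p 0.123). The protease inhibitor gene Serpina3n read 5.30, 5.76 and 5.11 in the Stat3-deleted epithelial cells, 6.27 to 8.71 (median 7.75) in their tumours and 9.51 to 11.54 (median 10.82) in control tumours. Its tumour difference was 2.27 here and 5.39 in controls (limma adjusted p of the difference 0.123, and 0.00778 without control tumours 9 and 15). Wfdc18, a protease inhibitor of the whey acidic protein family, had 3.67 against 5.62, and the G protein gene Gnal -0.11 against 1.94 (limma adjusted p of the difference 0.123 and 0.123). Without control tumours 9 and 15 these were 0.0898 for Wfdc18 and 0.026 for Gnal (limma adjusted p). The growth hormone receptor gene Ghr had 2.17 against 1.30, Cyp2j9 0.07 against -1.64, and Tent4b 0.23 against -0.70. For Ghr, Cyp2j9 and Tent4b the tumours of the genotypes overlapped, and the epithelial cells did not. Ghr read 7.39 to 8.02 in Stat3-deleted and 7.31 to 7.96 in control tumours. In epithelial cells it read 5.38 to 5.80 and 6.15 to 6.45. Epithelial values were 5.08 to 5.94 and 6.40 to 6.81 for Cyp2j9, and 8.20 to 8.60 and 8.93 to 9.13 for Tent4b.

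WNT target and feedback genes were high in the Stat3-deleted tumours. Of 24 tested, 20 were called higher and 0 lower, 16 at least 2-fold, with a median difference of 1.97 (2.18 in controls). Axin2, the feedback scaffold of the beta-catenin destruction complex, read 7.09, 7.13 and 7.12 in the epithelial cells and 8.24 to 9.41 (median 8.87) in the tumours, a difference of 1.74 ± 0.29 (limma adjusted p 0.000141). Nkd1, another feedback inhibitor, read 6.79, 6.73 and 6.69 against 9.84 to 11.18 (median 10.45), a difference of 3.76 ± 0.29 (limma adjusted p 1.62e-07). The tissues did not overlap for either gene. Among secreted inhibitors, Wif1 was 3.90, Notum 3.59, Apcdd1 2.60 and Dkk3 2.37 higher. The ligases that remove WNT receptors followed, with 2.39 for Znrf3 and 1.24 for Rnf43. Among targets, Prox1 was 4.23, Ifitm3 3.80, Cd44 3.38, Sox4 2.38, Ephb3 2.18, Sox9 2.11, Ccnd1 1.83 and Myc 1.63 higher, and the pathway genes Apc and Ctnnb1 0.70 and 0.51. Dkk2 (0.86), Tgfb1i1 (0.25), Sp5 (0.11) and Tcf7l2 (-0.28) were not called, and the call of Lef1 (0.79) was lost without replicate 4 (limma adjusted p 0.122). For the difference between the genotypes, 4 of these genes had an unadjusted p under 0.05, against 9.38% of all genes, and none was called. Of the 14 members with a promoter window, 1 holds the TCF core CTTTGAT on either strand, as do 3.34% of tested genes.

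Of 15 crypt stem cell genes tested, 10 were called higher and 0 lower (median 1.41, and 1.96 in controls). Lgr5, the R-spondin receptor that marks crypt base stem cells, read 5.95, 5.69 and 5.95 in the epithelial cells and 8.55 to 10.18 (median 9.24) in the tumours, a difference of 3.49 ± 0.33 (limma adjusted p 1.15e-06). Prom1 was 2.81, Tnfrsf19 2.20, Slc12a2 1.80, Smoc2 1.78, Cdk6 1.73, Cdca7 1.64, Lrig1 1.41 and Bmi1 1.08 higher. Olfm4, a secreted stem cell marker, read 10.07, 10.22 and 10.67 against 8.43 to 10.76 (median 9.52), and the groups overlapped (-0.82, limma adjusted p 0.348). Ascl2, a WNT-dependent regulator of the stem cell state, read 6.89, 6.57 and 6.49 against 6.19 to 6.71 (median 6.49), a difference of -0.17 that was not called, while in controls it was 1.08 higher in tumours (limma adjusted p 0.000231). The difference between the genotypes, -1.25 ± 0.27, was not called (limma adjusted p 0.315).

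All 15 tested genes of a fetal-like and regenerative epithelial state were called higher, 14 of them at least 2-fold, with a median of 2.53 (2.20 in controls). Besides Anxa1 and Clu, the keratin gene Krt23 was 3.47, the annexin gene Anxa3 2.93 and the interleukin 1 antagonist gene Il1rn 2.84 higher. Krt23 read 6.09, 6.78 and 6.41 in the epithelial cells and 9.42 to 10.35 (median 9.97) in the tumours, without overlap. The members that moved least were Msln (0.62), Tnfrsf12a (1.07) and the YAP target Ccn2 (1.33). Stromal marker RNA was higher in the same tumours, and its part in these values was not tested.

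Cell division and ribosome genes were higher as well. Of 24 division and DNA replication genes, 21 were called higher and 0 lower (median 0.98, and 1.44 in controls). The checkpoint kinase gene Bub1 was 2.08, the topoisomerase gene Top2a 1.72, the replicative helicase gene Mcm4 1.70, Mki67 1.60 and Rrm1 1.52 higher, while Birc5 (0.33), Cdc20 (0.25) and E2f1 (0.07) were not called. Of 18 ribosome biogenesis genes, 17 were called higher and 0 lower (median 1.31, and 1.74 in controls), among them the nucleolar genes Npm1 (2.17), Nop58 (2.05), Dkc1 (1.98) and Ncl (1.91).

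Growth factor genes were called in both directions. Of 12 EGF family ligands and receptors, 4 were called higher and 5 lower (median -0.0886), near the 30.3% and 36.2% of all genes. Ereg, which encodes the ligand epiregulin, read 5.15, 5.90 and 5.03 in the epithelial cells and 7.59 to 9.30 (median 8.71) in the tumours, a difference of 3.26 ± 0.32 (limma adjusted p 1.56e-06). The ligand genes Btc and Nrg1 were 1.45 and 1.07 higher, Hbegf fell by 0.93, and the receptor gene Erbb3 fell by 0.76, a call lost without replicate 5 (limma adjusted p 0.0813). Of 25 NOTCH, BMP and TGF-beta genes, 12 were called higher and 5 lower (median 0.23). The 5 members that moved most all rose: the activin subunit gene Inhba (3.22), the BMP antagonist gene Grem1 (2.94), the BMP ligand genes Bmp4 (2.13) and Bmp7 (1.54), and Notch2 (1.39).

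The mature absorptive programme was lower, with a wide spread between tumours. Of 26 absorptive enterocyte genes, 15 were called lower and 0 higher, with a median of -1.44. The count depended on the fit: 24 were called lower when only the arrays compared were fitted, and 11 to 16 when each array was left out, fewest without replicate 5. The list mean was 11.70 to 12.01 in the epithelial cells and 9.78, 10.32, 10.94, 10.94, 10.37 and 9.44 in tumours 10, 11, 12, 16, 17 and 18, so no tumour reached the epithelial range. Lct, which encodes lactase, read 11.63, 12.09 and 12.15 against 8.62 to 11.04 (median 9.06), a difference of -2.43 ± 0.70 (limma adjusted p 0.00625). The glucose transporter gene Slc2a2 fell by 2.60, the amino acid transporter gene Slc6a19 by 2.58 and the meprin peptidase gene Mep1a by 2.53. The phosphatase gene Alpi (-0.47) and the apolipoprotein genes Apob (-0.51) and Apoa4 (-0.59) were not called. In controls 26 genes were called lower with a median of -2.48, which was -1.72 without control tumours 9 and 15. The median difference between genotypes went from 0.95 to 0.19 with that step, and no member was called for it with all arrays (1 had an unadjusted p under 0.05).

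Of 24 genes of xenobiotic metabolism, 13 were called lower and 0 higher, with a median of -1.30 (-2.59 in controls, and -1.99 without tumours 9 and 15). The cytochrome gene Cyp2b10 read 11.20, 11.12 and 10.92 in the epithelial cells and 5.96 to 9.52 (median 8.41) in the tumours, a difference of -2.83 ± 0.58 (limma adjusted p 0.000668). The drug exporter gene Abcc2 fell by 1.82, the carboxylesterase gene Ces2a by 1.80 and Cyp2d26 by 1.60, and the call of Cyp3a11 (-2.35) was lost without any of replicates 4, 5, 6, 10 and 18 (limma adjusted p up to 0.083). The list mean was 9.85 to 10.47 in Stat3-deleted and 10.69 to 10.75 in control epithelial cells. In tumours it was 7.89 to 9.82 and 7.27 to 8.87. The epithelial cells of the genotypes did not overlap, and the tumours did. For the difference between genotypes 12 of these genes had an unadjusted p under 0.05, against 9.38% of all genes, and none was called. Without control tumours 9 and 15 there were 7, and the median difference was 0.90 in place of 1.36.

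Markers of gut segments were lower or level in the tumours. Of 14 ileal genes, 12 were called lower and 0 higher, 12 at least 2-fold (median -2.21). Slc10a2, the ileal uptake transporter for bile acids, read 7.03, 7.02 and 7.70 in the epithelial cells and 3.91 to 4.62 (median 4.59) in the tumours, a difference of -2.81 ± 0.30 (limma adjusted p 3.32e-06), against -0.97 in controls (limma adjusted p of the difference 0.323). Tmigd1 and Amn, the partner of cubilin, fell by 2.56 and 2.39. The ileal list mean was 6.53 to 7.52 in the Stat3-deleted tumours. Control tumours 7 and 8 had 8.01 and 8.79, and control tumours 9, 13, 14 and 15 had 6.73, 7.04, 7.53 and 6.91. The control median of the list was -1.97, and -1.60 without control tumours 9 and 15. The part of gut segment in these differences between genotypes was not tested. Of 13 genes of the proximal small intestine, 6 were called lower and 0 higher (median -0.72). Gata4, its defining transcription factor gene, read 9.45, 9.75 and 9.84 against 9.18 to 9.86 (median 9.53) and was not called (-0.17). Of 16 genes of colon and posterior gut, 5 were called lower and 0 higher (median -0.59), with list means of 5.31 to 6.48 in these tumours. Control tumours 7, 8, 13 and 14 had 6.13, 5.80, 5.67 and 5.61, within that range, and control tumours 9 and 15 had 7.07 and 6.95, above it. Car4, a colonic carbonic anhydrase gene, fell by 1.90, a call lost without replicate 5 (limma adjusted p 0.055), and Aqp8 (-0.02) and Car1 (-0.04) were not called.

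**Figure D3:**
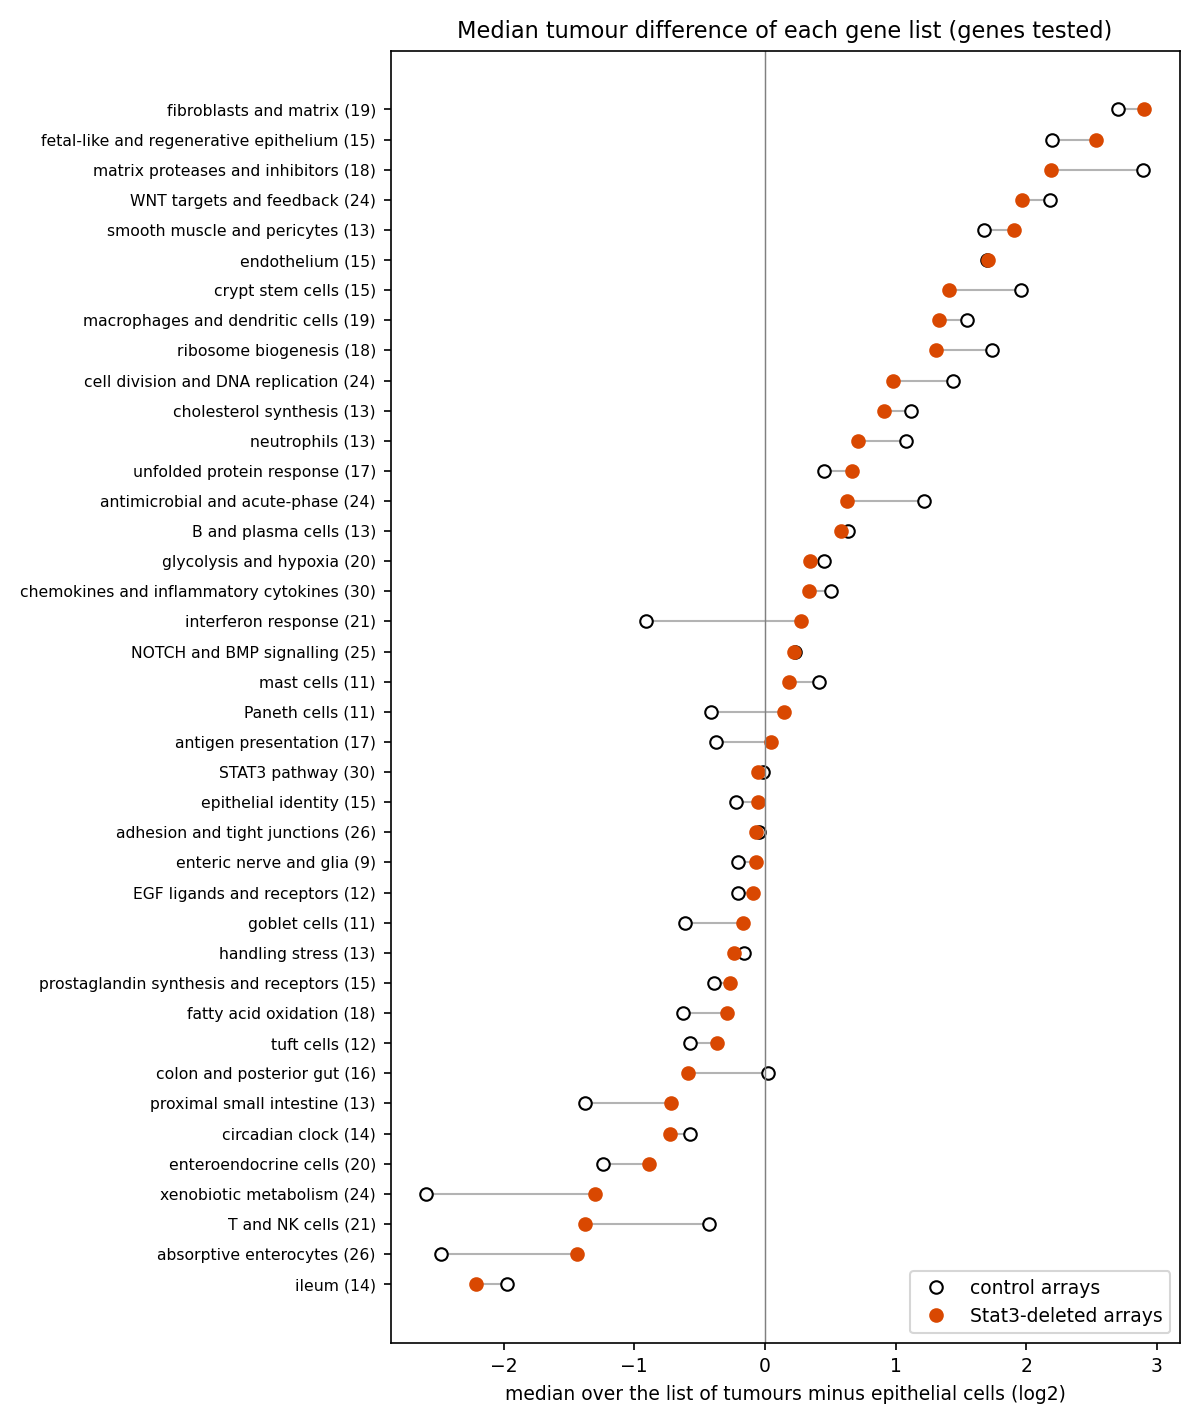
Median difference between tumours and epithelial cells (log2, horizontal axis) of each of 40 gene lists (vertical axis, with the number of genes tested) in control arrays (open) and Stat3-deleted arrays (filled). Fibroblast genes have the highest Stat3-deleted median (2.90), followed by fetal-like genes (2.53), and ileal genes the lowest (-2.21).

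The plot of list medians places the Stat3 pathway near 0. Of 30 tested, 7 were called higher and 6 lower (median -0.0496), against 30.3% and 36.2% of all genes. With quantile normalisation 7 were called higher and 13 lower (median -0.291). Of the 7 rises in the fit reported, 5 were cytokine or receptor genes upstream of Stat3. Il6st, the receptor subunit gp130 shared by the interleukin 6 family, read 6.94, 7.21 and 6.78 in the epithelial cells and 9.05 to 10.45 (median 9.32) in the tumours, a difference of 2.51 ± 0.25 (limma adjusted p 2.01e-06). Osmr, the oncostatin M receptor, read 4.59, 4.68 and 4.78 against 6.65 to 7.89 (median 7.24), a difference of 2.53 ± 0.26 (limma adjusted p 2.37e-06), and Lifr, the LIF receptor, was 1.82 higher. Both receptors lay above the epithelial values in every tumour. The ligand gene Il11 read 6.23, 5.37 and 6.17 against 6.68 to 8.73 (median 8.12) and was 2.06 higher, and Il6 read 3.86, 3.99 and 3.42 against 4.55 to 6.75 (median 5.91) and was 2.05 higher. The other 2 rises were Hif1a (0.96) and the phosphatase gene Ptpn2 (0.89). Other ligands and receptors, Lif (0.42), Osm (-0.29), Il6ra (-0.24), Il22ra1 (-0.64), Il10ra (0.45) and Il10rb (-0.18), and the kinases Jak1 (0.25), Jak2 (-0.44) and Tyk2 (-0.03) were not called.

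The 6 falls were Pim1, Pim3, Fos, Junb, Socs1 and Socs3. Pim1, a survival kinase, read 10.09, 10.15 and 9.84 in the epithelial cells and 8.78 to 9.24 (median 9.16) in the tumours, a difference of -0.94 ± 0.20 (limma adjusted p 0.000702). The AP-1 genes Fos and Junb fell by 1.42 and 1.18, the feedback inhibitor Socs1 by 0.87 and the kinase Pim3 by 0.78. Socs3, the main feedback inhibitor of gp130, fell by 0.62, a call lost without replicate 5 (limma adjusted p 0.0818) and with arrays centred on epithelial identity genes (limma adjusted p 0.172). Other targets, Bcl3 (-0.10), Bcl2l1 (-0.35), Mcl1 (0.03), Cebpb (-0.27) and Cebpd (0.08), were not called. Fos and Junb also respond to the handling of tissue, and 6 of 13 genes of such stress were called lower and 3 higher. No pathway member was called for the difference between the genotypes. The tumours were measured whole, so fewer cells of a type and less RNA per cell cannot be told apart in any of these values.

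Antimicrobial and acute-phase genes, drawn for both genotypes in the plot of acute-phase differences, held rises together with a fall of Reg3b. Of 24 tested, 13 were called higher and 1 lower (median 0.63, and 1.22 in controls). The list mean was 6.96 to 7.10 in Stat3-deleted and 7.51 to 7.71 in control epithelial cells. In tumours it was 7.88 to 8.20 and 8.63 to 9.51. Both Stat3-deleted tissues thus lay below those of controls without overlap. Lcn2, an iron-withholding lipocalin, read 5.18, 5.15 and 5.15 in the epithelial cells and 7.62 to 11.10 (median 9.12) in the tumours, a difference of 4.06 ± 0.53 (limma adjusted p 2.17e-05), against 5.78 in controls. Saa3 read 4.74, 4.53 and 4.48 against 8.55 to 11.47 (median 9.45), with 4.56 in controls. Both lay above the epithelial values in every tumour. Pla2g2a was 4.42, the haptoglobin gene Hp 2.93, the lectin gene Reg4 2.24, and the calprotectin genes S100a8 and S100a9 2.07 and 1.45 higher, while the call of the NADPH oxidase gene Nox1 (2.30) was lost without replicate 4 (limma adjusted p 0.0858), that of S100a9 without replicate 5 (0.0744) and that of Lbp (1.05) without replicate 6 (0.0619).

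Reg3b, an antibacterial lectin gene, read 8.39, 8.06 and 8.21 in the epithelial cells and 5.26 to 8.79 (median 6.19) in the tumours. Male tumour 12 was above the epithelial values. The difference of -1.69 ± 0.61 was called (limma adjusted p 0.0231) but lost without any of replicates 4, 6, 10, 11 and 18 (limma adjusted p up to 0.0758) and with array weights (limma adjusted p 0.103). With male tumours only, no member of the list was called lower, so the call was lost there too. Control arrays read 13.11, 13.24 and 13.06 in epithelial cells and 11.26 to 13.10 (median 12.69) in tumours, above all Stat3-deleted arrays. Its relatives Reg3g (-1.12), Reg3a (-1.30) and Reg1 (-1.16) were not called, and the probes of these similar genes may share signal. The epithelial defence genes Nos2 (-0.64), Duox2 (-1), Duoxa2 (-0.52), Pigr (-0.37), Retnlb (-0.13), Ang4 (-0.72) and Saa1 (-0.31) were not called either.

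**Figure D4:**
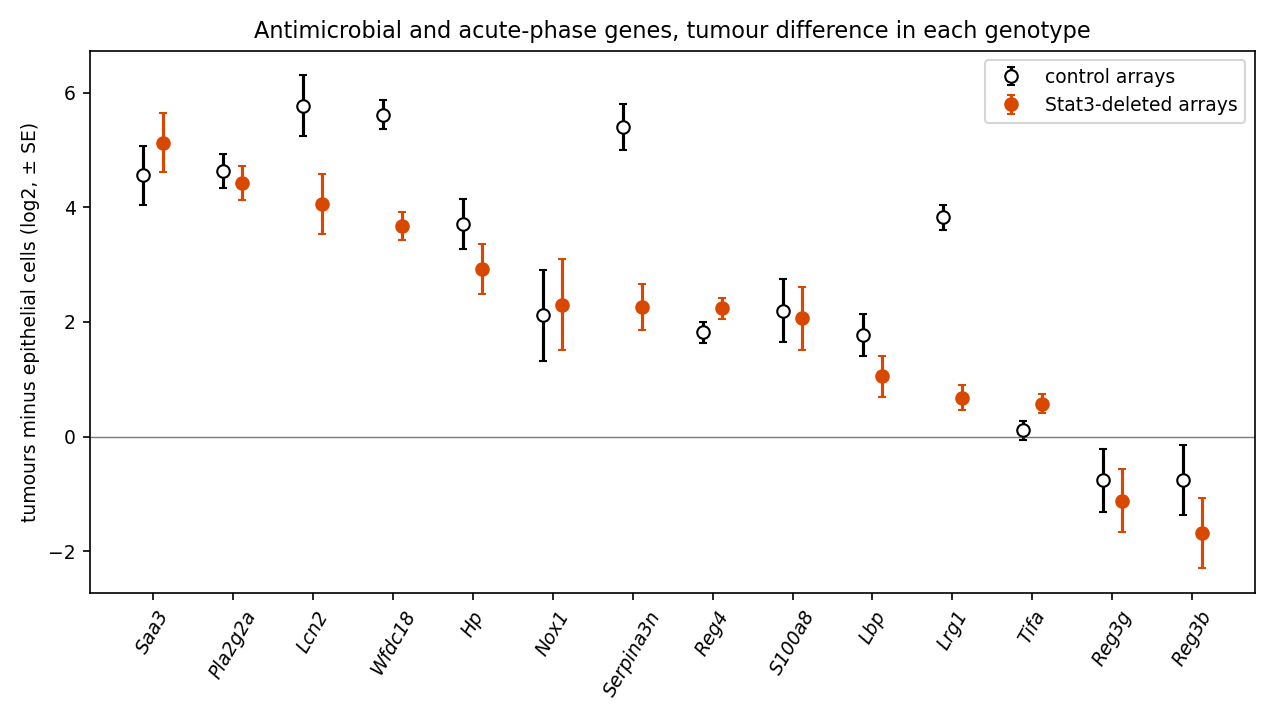
Difference between tumours and epithelial cells (log2, ± SE) of 14 antimicrobial and acute-phase genes in control arrays and Stat3-deleted arrays. Saa3 (5.13 and 4.56) and Pla2g2a (4.42 and 4.63) lie close together in Stat3-deleted and control arrays, whereas Lrg1 (0.68 and 3.83) is the member called for the difference between them.

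Matrix-degrading enzymes were high in the tumours, while genes of inflammatory mediators were called in both directions. Of 18 matrix protease and inhibitor genes, 15 were called higher and 0 lower (median 2.19). Mmp13 read 5.31, 5.18 and 5.06 in the epithelial cells and 9.31 to 11.17 (median 10.14) in the tumours, the plasminogen activator genes Plat and Plau were 4.33 and 2.94 higher, Mmp10 4.23 and the inhibitor gene Timp3 3.43. Of 15 prostaglandin genes, 4 were called higher and 5 lower, against 30.3% and 36.2% of all genes. Ptgs2, the inducible cyclooxygenase, read 5.44, 5.15 and 5.21 against 8.27 to 10.34 (median 9.24), a difference of 3.98 ± 0.38 (limma adjusted p 1.18e-06), while Hpgd, which breaks prostaglandins down, fell by 1.58. Of 30 chemokine and cytokine genes, 10 were called higher and 5 lower, against 30.3% and 36.2% of all genes. The cytokine gene Il1b was 3.27 and the chemokine genes Cxcl9, Cxcl10 and Cxcl5 2.87, 2.66 and 2.58 higher, whereas Ccl5, also a marker of cytotoxic lymphocytes, fell by 2.68.

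Of 21 interferon response genes, 4 were called higher and 1 lower (median 0.28), and in controls 3 were called higher and 14 lower (median -0.91). The Stat3-deleted values were not stable: 4 were called higher and 8 lower with array weights (median -0.188) and 3 higher and 4 lower with quantile normalisation (median 0.0123), and the median was -0.104 without replicate 4 and 0.00174 without replicate 11. The GTPase genes Iigp1 and Gbp3 were 4.77 and 2.80 and Ifit2 2.89 higher. The calls of Ifit3 (1.02) and Oasl1 (-0.67) were lost without replicate 4 (limma adjusted p 0.293 and 0.128). The list mean was 8.12 to 8.89 in Stat3-deleted and 8.39 to 8.73 in control epithelial cells, and 8.51 to 9.5 in Stat3-deleted and 6.63 to 8.67 in control tumours, where replicate 8 was lowest. For the difference between genotypes 12 genes had an unadjusted p under 0.05 (19 without control tumours 9 and 15), and none was called with all arrays. Of 17 antigen presentation genes, 4 were called higher and 1 lower. Besides H2-Eb2 these were H2-T10 (0.93), the peptidase gene Erap1 (0.81), which was lost without replicate 4 (limma adjusted p 0.121), the class II regulator gene Ciita (0.58) and the immunoproteasome gene Psmb10 (-0.49). H2-Ab1 (-0.02), Cd74 (0.05) and Tap1 (0.09) were not called.

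Of 26 junction and adhesion genes, 6 were called higher and 7 lower, below the 66.5% called over all genes. Quantile normalisation gave 5 higher and 11 lower. Cldn2, a pore-forming claudin of crypts, read 6.45, 7.04 and 7.55 in the epithelial cells and 9.37 to 9.89 (median 9.63) in the tumours, a difference of 2.60 ± 0.30 (limma adjusted p 8.66e-06). Cldn15, a claudin of the small intestine, read 10.15, 10.46 and 10.60 against 7.91 to 9.43 (median 8.92), a difference of -1.58 ± 0.46 (limma adjusted p 0.00716), so these claudins moved in opposite directions without overlap. Cdh1, which encodes E-cadherin, was not called (0.14). The mesenchymal genes Vim, Zeb1, Zeb2 and Snai2 were 2.86, 1.32, 1.23 and 0.69 higher, Twist1 fell by 0.74 and Snai1 (-0.07) was not called. Among epithelial identity genes Krt18 was 1.68 and Elf3 0.44 higher, and Cdx1 and Cldn7 fell by 0.80 and 0.77. The call of Hnf4a (-0.67) was lost without any of replicates 4, 5, 6, 10 and 18 (limma adjusted p up to 0.0737). Those of Krt19 (0.70), Vil1 (-0.75) and Elf3 were lost without replicates 4, 5 and 6 in that order (limma adjusted p 0.0813, 0.0555 and 0.0924).

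Secretory lineages were unequal. Of 20 enteroendocrine genes, 16 were called lower and 2 higher (median -0.89). The neurotensin gene Nts read 6.92, 8.13 and 6.95 in the epithelial cells and 4.34 to 5.48 (median 4.78) in the tumours, a difference of -2.58 ± 0.34 (limma adjusted p 2.49e-05), and the hormone genes Gip, Sct, Cck and Sst fell by 1.94, 1.85, 1.84 and 1.72. Of 11 goblet cell genes, 3 were called higher and 2 lower: the mucin chaperone gene Agr2 was 1.29 higher, Capn9 fell by 1.20, and the mucin gene Muc2 (-0.17) was not called. Of 11 Paneth cell genes, 4 were called higher and 2 lower. The risers Pla2g2a, Lyz2 (2.05), Mmp7 (1.77) and Nupr1 (1.58) are also made by other cells, and Lyz1 (0.14), the Paneth cell lysozyme gene, was not called. Of 12 tuft cell genes, 5 were called lower and 1, Avil, higher (1.46).

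Markers of stroma and of macrophages were higher in the tumours. Of 19 fibroblast and matrix genes, 16 were called higher and 1 lower (median 2.90), with list means of 6.16 to 6.42 in the epithelial cells and 8.29 to 9.85 in the tumours. The collagen gene Col1a1 was 3.97 and Tnc 4.20 higher. Of 15 endothelial genes 14 were called higher and 0 lower (list means 5.57 to 5.83 against 7.33 to 7.86), led by Cdh5 (3.20). Of 13 smooth muscle and pericyte genes 10 were called higher and 1 lower (6.03 to 6.35 against 7.48 to 8.66), led by the actin gene Acta2 (4.37). Of 19 macrophage and dendritic cell genes 13 were called higher and 0 lower (5.66 to 6.12 against 6.83 to 8.18), led by Mpeg1 (3.39). For these 4 lists no tumour overlapped with the epithelial cells, and the part of these cells in the rises given above was not tested.

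Of 13 B and plasma cell genes 7 were called higher and 2 lower. Jchain, which joins secreted immunoglobulins, read 7.65, 7.31 and 7.58 in the epithelial cells and 10.57 to 12.04 (median 11.84) in the tumours, a difference of 4.14 ± 0.36 (limma adjusted p 4.82e-07). Of 13 neutrophil genes 3 were called higher and 3 lower, and list means were 5.10 to 5.35 against 5.42 to 6.64. Of 11 mast cell genes 2 were called higher and 1 lower, with the mucosal protease gene Mcpt2 3.24 higher. Of 9 enteric nerve and glia genes 0 were called higher and 4 lower.

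T and NK cell genes were lower in the Stat3-deleted tumours. Of 21 tested, 18 were called lower and 0 higher (median -1.38, and -0.43 in controls). The list mean was 8.04, 7.02 and 6.81 in epithelial replicates 4, 5 and 6 and 5.68 to 6.12 in the tumours, so replicate 4 was highest and no tumour overlapped. Without replicate 4 the median was -0.893. Gzma, a granzyme of cytotoxic lymphocytes, read 11.13, 9.75 and 9.33 against 5.98 to 8.02 (median 7.67), a difference of -2.80 ± 0.54 (limma adjusted p 0.000424). Gzmb and Nkg7, genes of the same cells, fell by 2.66 and 2.18, and the co-receptor gene Cd8a by 1.79. The control epithelial cells had list means of 6.19 to 6.62 and the control tumours of 5.55 to 6.10, so the tumours of the genotypes overlapped and the Stat3-deleted epithelial cells lay above the control ones. For the difference between genotypes 12 genes had an unadjusted p under 0.05 and none was called.

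**Figure D5:**
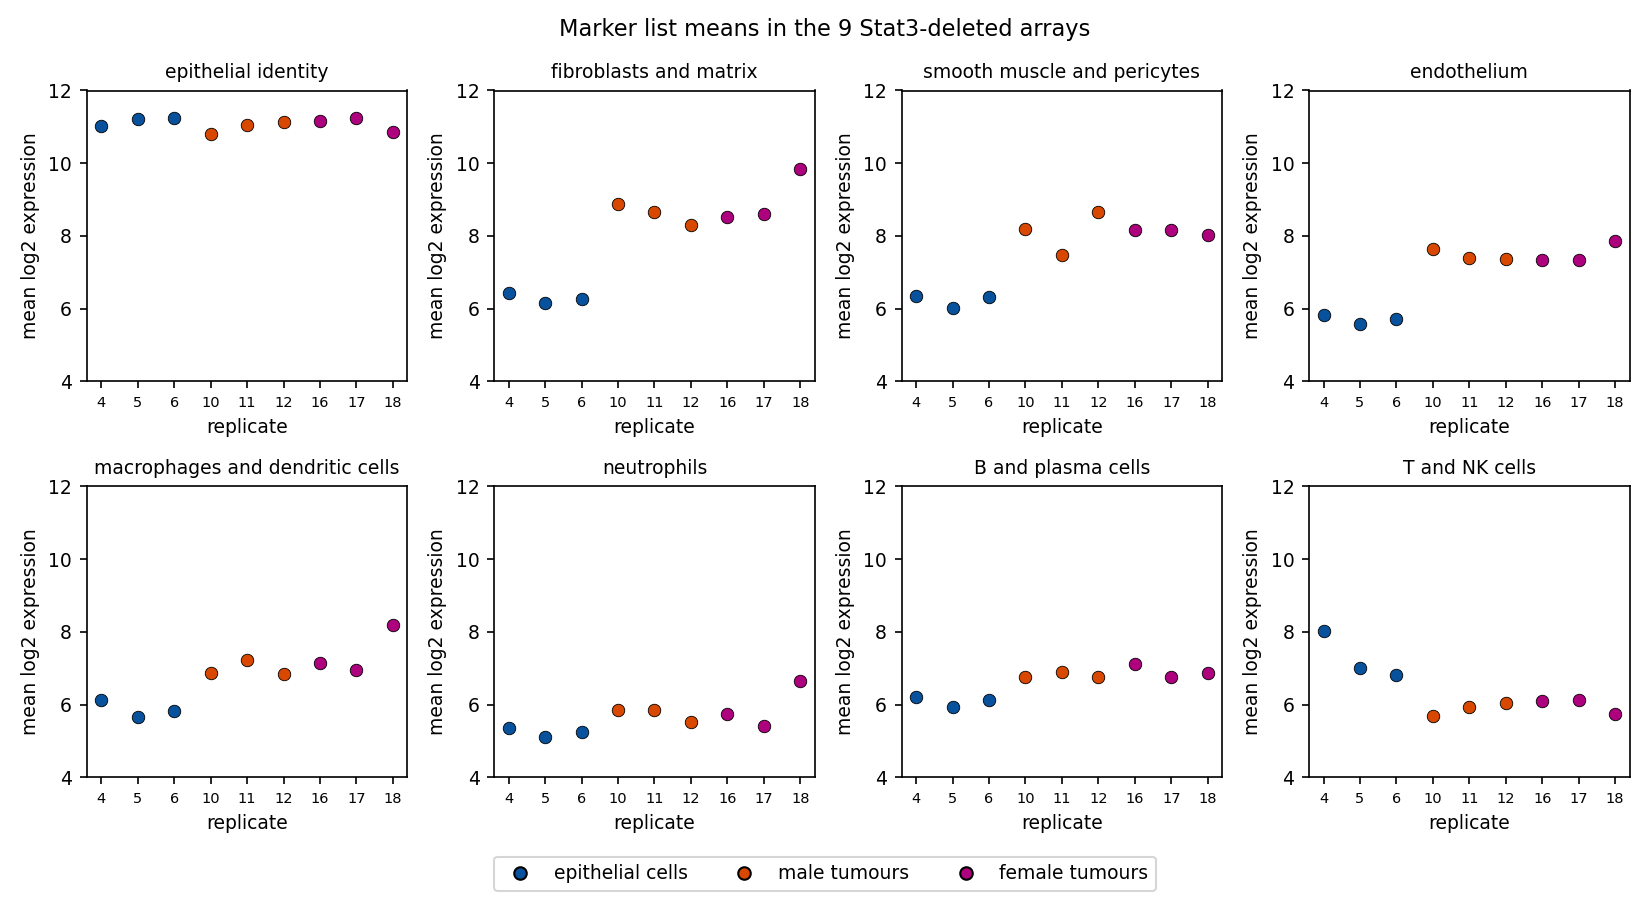
Mean log2 expression (vertical axis) of 8 marker lists in each of the 9 Stat3-deleted arrays. Fibroblast means are highest in tumour 18 (9.85), and T and NK cell means are highest in epithelial replicate 4 (8.04).

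The plot of marker lists by array sets male and female tumours side by side. The sexes of the Stat3-deleted tumours differed in 4 of 17316 genes (0.0231%), 3 higher (0.0173%) and 1 lower (0.00578%) in males, and 575 genes (3.32%) had an unadjusted p under 0.05. All 4 were sex-linked. Xist, which silences an X chromosome in females, differed by -6.00 (limma adjusted p 7.15e-12), and the Y-linked Eif2s3y, Uty and Kdm5d by 5, 4 and 2.75. Xist read 4.44, 4.03 and 4.06 and Eif2s3y 7.31, 7.79 and 7.68 in the epithelial cells, near the male tumours. Where female tumours are compared with these cells, sex and tissue therefore cannot be told apart. Kdm6a (-0.90), Pdpn (-0.95), Arntl (-0.75), Chrdl2 (-0.68), Majin (0.57) and Tacr2 (0.57) had the next smallest p and were not called (limma adjusted p 0.958 each).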

How the data were processed

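The deposited values are log2 expression values, 1 column for each of 18 arrays, made by the authors with RMA per the submitters' processing notes, which corrects background, quantile-normalises and summarises probes. RNA was labelled for an Affymetrix mouse gene array, and array medians were 5.88 to 6.07. The deposited values were nevertheless spread more widely in tumours. Upper quartiles of the arrays were 7.675 to 7.866 in tumours and 7.412 to 7.578 in epithelial cells, and lower quartiles 4.295 to 4.407 and 4.51 to 4.575. Of 35556 probe sets, 21789 carried 1 gene symbol in the platform table, 1621 several and 12146 were not listed. RefSeq records matched 21698. Each of 19938 genes was represented by its brightest probe set, and 17316 genes above the array's 25th percentile in at least 3 arrays were tested.

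The groups were taken from the sample titles. A limma fit (version 3.58.1, R 4.3.3) estimated 6 group means of 3 arrays each with an intensity trend, and contrasts were called at a Benjamini-Hochberg adjusted p under 0.05, two-sided. The Stat3-deleted difference is the mean of male and female tumours minus epithelial cells. The difference between genotypes subtracts the same contrast of control arrays. The fit was tested on simulated data with independent normal noise for each gene. Differences between arrays in quality or cell content were not simulated. The number of arrays limits the precision: the median standard error was 0.166 for a difference and 0.235 for the difference between genotypes.

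Named genes are the 15 largest rises and 15 largest falls among called genes without overlap. For the genotype and sex differences they are the called genes and those of next smallest p. For each of 40 lists they are up to 5 called members that moved most and up to 3 that moved least, with all members of the WNT, stem cell, STAT3, antimicrobial, epithelial identity and adhesion lists. The members and lists were chosen with earlier results of these data known, and lists are described by counts and medians without a test. Some genes stand in more than 1 list. Alternatives were quantile normalisation, no filter on dim genes, the mean of probe sets, array weights, no intensity trend, only the arrays compared, tumours of 1 sex, centring on epithelial identity genes and leaving out each array. Leaving out control tumours 9 and 15 and separate fits per genotype were chosen after seeing the data.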

Additional observations from a re-analysis of the deposited data

Results flagged for a closer look

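Female tumour 18 lay apart from the other 5 Stat3-deleted tumours in 5 of 80 quantities examined (Dixon gap test at the 95% level). Chance gives about 1 in 20 for any of the 6 tumours to lie apart, and 5 of 80 is near that share. All 5 were of tumour 18, however. The share that chance gives for 1 named tumour is smaller and was not computed. The quantities are not independent, since the matrix protease and neutrophil lists share Mmp8 and Mmp9. Its Fn1 level was 11.94, against 10.22 to 10.75 in the others. Its mean level was 9.063 for matrix protease genes (7.619 to 8.113 in the others), 8.178 for macrophage and dendritic cell genes (6.83 to 7.225), 6.643 for neutrophil genes (5.416 to 5.856) and 9.363 for goblet cell genes (9.731 to 9.905). Without it, 10 genes in place of 2 were called for the difference between genotypes.

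Lrg1 and H2-Eb2 differed between the genotypes in their tumour change, by -3.145 (limma adjusted p 0.000288) and by 2.005 (limma adjusted p 0.0402).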

How the results depend on the processing

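Calls for the difference between genotypes depended most on the processing: 2 genes in the fit reported, 1038 with array weights (379 higher and 659 lower), 1 with female tumours only, 8 without control tumours 9 and 15, and 1 to 10 when each array was left out. Lrg1 was called in every one of these settings. The 10 genes called without tumour 18 included Npy, Npy2r, Serpina3n and Wfdc18. With arrays centred on epithelial identity genes, 7196 genes in place of 11514 were called between the Stat3-deleted tissues, 62.8% of them higher in place of 45.6%, as the median of all genes moved from -0.0744 to 0.0452. Leaving out each array gave 9558 to 11544 calls, 2464 to 3427 at least 2-fold, 9045 to 12287 in controls and 4 to 4 between the sexes. With male tumours only, the sex-linked Eif2s3y (0.6398), Uty (0.5828), Kdm5d (0.2568) and Xist (-0.1143) reversed from -1.86, -1.42, -1.12 and 2.88. The cause was not tested for the other changes. Of 267 followed genes called between the Stat3-deleted tissues, 215 kept their call in all alternatives run. Fitting only the arrays compared could not be applied to the difference between genotypes, which uses all arrays. Without a background call per probe, dim genes cannot be told from background. No paired analysis was possible because the replicate numbers run from 1 to 18 without repeats over the groups.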

Other observations

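Metabolic and protein-folding genes were called between the Stat3-deleted tissues in the following numbers, to be read against 30.3% of all genes called higher and 36.2% lower. Of 13 cholesterol synthesis genes, 9 were called higher in the tumours and 0 lower (median 0.91, and 1.12 in controls), with list means of 8.27 to 8.60 in the epithelial cells and 9.23 to 9.46 in the tumours. The isomerase gene Idi1 was 1.71, Cyp51 1.67 and the squalene synthase gene Fdft1 1.59 higher. Of 17 genes of the unfolded protein response, 10 were called higher and 2 lower, with the folding enzyme genes Pdia4 and Pdia6 1.5 and 1.32 higher, while the stress kinase-like gene Trib3 fell by 1.29. Of 18 fatty acid oxidation genes, 2 were called higher and 4 lower: the coactivator gene Ppargc1a fell by 1.54 and Acadl was 0.99 higher. Of 20 glycolysis and hypoxia genes, 5 were called higher and 2 lower. The glucose transporter gene Slc2a1 was 2.12 and Hk2 0.99 higher, Vegfa fell by 0.82, and Ldha (0.03) was not called.

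Of 14 circadian clock genes, 8 were called lower and 2 higher (median -0.72). Dbp, an output gene of the clock, read 9.22, 9.10 and 9.08 in the epithelial cells and 6.28 to 8.10 (median 7.25) in the tumours, and the repressor gene Nr1d1 fell by 1.82. The labels give no time of collection, so time of day and tissue cannot be told apart. Of 13 immediate-early and heat shock genes, 6 were called lower and 3 higher, with Fosb lower by 2.21 and the chaperone gene Hsph1 2.01 higher. List means of these genes were 8.20 to 8.52 in the epithelial cells and 7.93 to 8.42 in the tumours.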
